A study of Mus musculus with 68 samples.

Results

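Inhibitory GABA receptors were described in single VTA DA neurons (dopamine neurons of the ventral tegmental area) through 7 genes, chosen by their symbols among the 36172 genes of the deposited table: Gabra2, Gabra3, Gabra4, Gabrb1 and Gabrg1, which encode subunits of the GABA-A receptor, and Gabbr1 and Gabbr2, which encode the GABA-B receptor. The cells came from 12-month-old mice of both sexes, 33 cells from 3xTg and 35 from WT. 3xTg mice are homozygous for 3 humanized transgenes, among them an APP with the Swedish mutation and a mutant tau. The WT controls lack the transgenes, share the mixed C57BL/6 and 129 ancestry, and were bred as their own colony, so they are not littermates. Neurons were picked in the slice by position and slow firing, and their contents were drawn into the pipette after recording (Patch-seq). Each library is 1 cell and the labels do not give its mouse, so each genotype was taken as 1 sample: values are described, no test between genotypes was made, and an SD describes cells and not animals.

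GABA-A receptors are chloride channels of 5 subunits, usually alpha, beta and gamma, and the alpha subunit sets much of their kinetics, drug sensitivity and place in or outside the synapse. GABA-B receptors are G protein coupled and need both of their subunits: GABBR1 binds GABA, and GABBR2 couples to the G protein and brings the pair to the cell surface. In midbrain dopamine neurons, GABA from local and striatal inputs slows firing through both receptors, and GABA-B acts there by opening GIRK potassium channels.

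Total counts ran from 676556 to 1678624 per cell in 3xTg and from 492505 to 1327367 in WT, and the median number of genes with at least 1 count was 8511 in 3xTg and 7476 in WT. Counts were divided by a size factor for each cell, which gives the normalized count used below, and 10741 genes, among them 6 of the 7, reached a mean normalized count of 5 over the 68 cells. Gabrg1, at a mean of 4.71, did not. The dopaminergic markers Th, Slc6a3, Slc18a2 and Ddc had a count in every cell. The first 3 were used to choose the cells, as was the absence of Pvalb, Tmem119, P2ry12 and Aldh1l1. In the deposited counts 5 cells of 3xTg and 5 of WT held at least 1 count of Pvalb, Tmem119 or P2ry12. Aldh1l1 was at 0 in all cells, and since its absence was part of the choice, this is not a separate result. Of 6 astrocyte markers, 5 had a count in each genotype, and their summed level ran from 11.6 to 924 CPM (counts scaled to the total of the cell) in 3xTg and from 6.13 to 2510 CPM in WT. Label numbers fall into 5 runs of 1 genotype each: the first run is WT (1 to 22), followed by 3xTg (24 to 55), a second run of WT (57 to 74), a second run of 3xTg (76 to 92) and 3 last WT cells (94 to 96). The meaning of the numbers is not given in the sources used here. The median number of genes with a count was 5233 in the WT run 1 to 22 and between 6216 and 9308 in the other runs.

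Most VTA DA neurons held several GABA-A alpha subunits and Gabbr1, while Gabrg1 and Gabbr2 were found in a minority. At least 1 count was present in 51 of 68 cells for Gabra2, 51 for Gabra3, 53 for Gabra4, 48 for Gabrb1, 10 for Gabrg1, 65 for Gabbr1 and 25 for Gabbr2. Each of the 7 genes was at 0 in at least 1 cell of each genotype, so the lowest value was 0 throughout. Counts between 1 and 9 were found in 30 of the 51 cells with Gabra2, and in 1 cell each for Gabrg1 and Gabbr2.

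**Figure D1:**
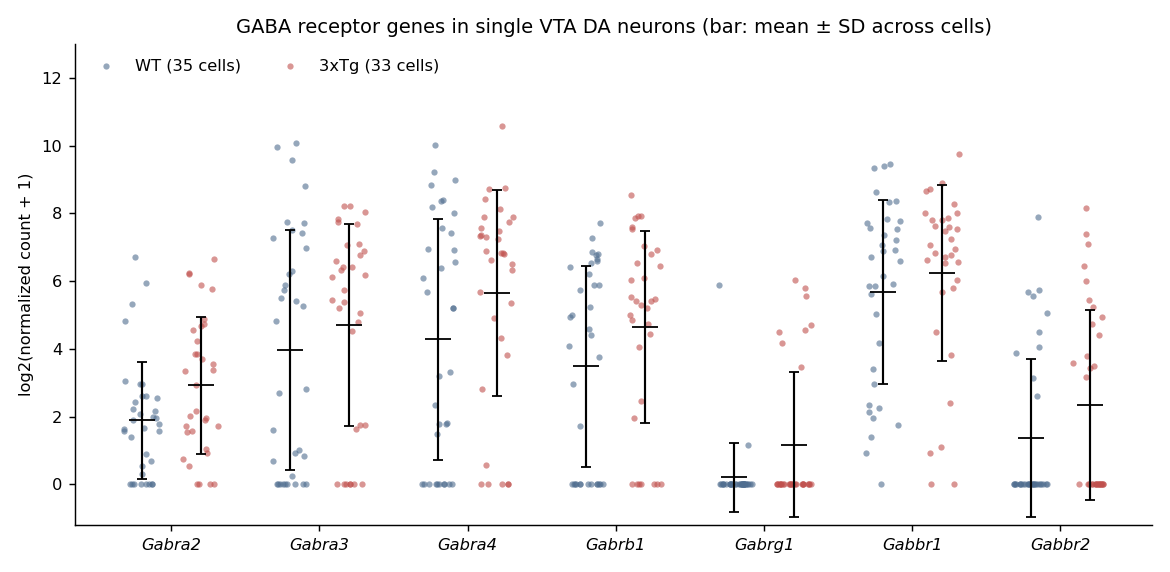
Each point is 1 cell, plotted as log2(normalized count + 1) for the 7 genes, with 35 WT cells in blue and 33 3xTg cells in red. The bar is the mean and the whiskers are 1 SD across cells. Points of the genotypes overlap for every gene, and Gabrg1 and Gabbr2 have most cells at 0.

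Levels of different genes were compared per 1 kb of the longest GENCODE transcript. By the mean over cells Gabra4 was the highest of the 7, with 36.99 ± 59.9 normalized counts per kb (SD across 68 cells), followed by Gabbr1 at 30.8 ± 34.9 and Gabra3 at 30.1 ± 55.9. Gabrb1 at 4.28 ± 5.51, Gabbr2 at 3.64 ± 9.02, Gabra2 at 2.21 ± 3.97 and Gabrg1 at 0.987 ± 2.93 were lower. By the median over cells Gabbr1, at 21.1 per kb, was above Gabra4, at 19.7, and Gabra2, at 0.499, was above Gabbr2, at 0. Each step of the means between neighbours in this order was smaller than the SD across cells of both genes, except that from Gabra3 to Gabrb1, which was larger than the SD of Gabrb1. Gabrb1 has a transcript of 13737 bases of which 1425 are coding, so its distance from the others depends on the length chosen: per kb of coding sequence it was at 41.3, against 87.5 for Gabra4, 68.8 for Gabra3, 56.04 for Gabbr1, 9.52 for Gabra2, 7.42 for Gabbr2 and 3.37 for Gabrg1. On that scale Gabra3 was above Gabbr1, and Gabra2 above Gabbr2.

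Of 11 other GABA-A genes, Gabrb2, a beta subunit, was higher than all 7 on this scale, at 59.2 ± 142 normalized counts per kb. The remaining 10 were at a mean of 0.365 per kb or below, and Gabrp had no count in any cell. Gabrd, whose product joins alpha4 in many receptors outside the synapse, had a count in 1 of 68 cells, although Gabra4 had one in 53.

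**Figure D2:**
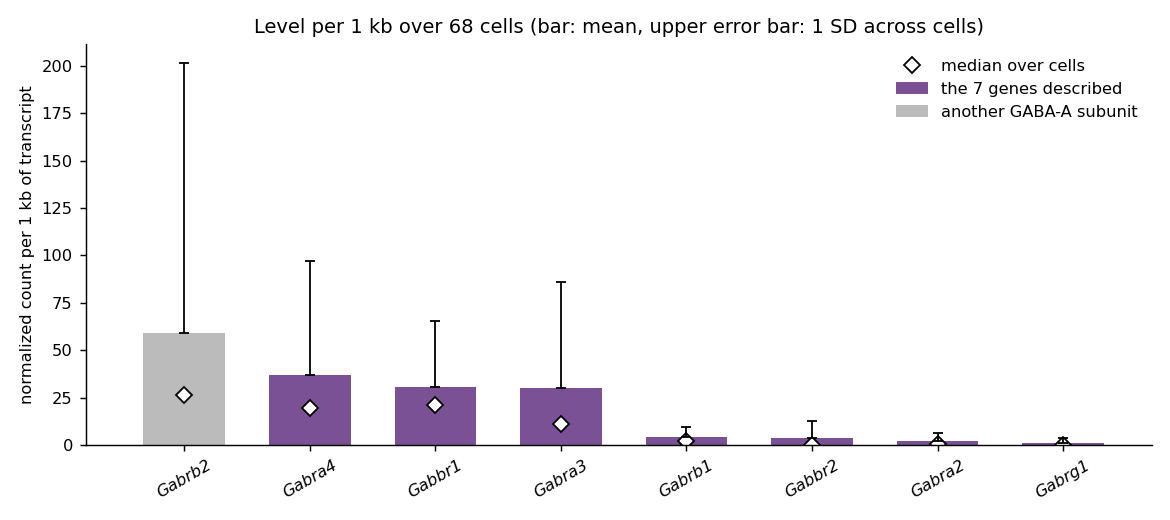
Bars give the mean normalized count per 1 kb of transcript over 68 cells, with 1 SD across cells as the upper error bar and the median over cells as a diamond. Purple bars are the 7 genes described, and the grey bar is the GABA-A subunit Gabrb2. The medians of Gabbr2 and Gabrg1 lie at 0.

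Gabrg1, Gabra2, Gabra4 and Gabrb1 are neighbours on chromosome 5 (mm10), in a stretch from 70751047 to 72137244 inside which the table lists 5 genes, Gabra2 and Gabra4 included. Gabrg1 (gene ID 14405) lies at chr5:70751047-70842617, Gabra2 (14395) at chr5:70961057-71095849 and Gabra4 (14397) at chr5:71569734-71658308, all on the minus strand, and Gabrb1 (14400) lies at chr5:71700016-72137244 on the plus strand. Gabra3 (14396) is at chrX:72432676-72656246 (minus), Gabbr1 (54393) at chr17:37045966-37074305 (plus) and Gabbr2 (242425) at chr4:46663898-46991714 (minus). Other genes of the table overlap only Gabra3 and Gabrb1, and these had no counts. All 7 genes have entries in the RefSeq promoter table (GRCm38.p6, the same build as mm10). The 250 bases before the start are shown for the neighbours Gabra4 and Gabrg1 and for the pair Gabbr1 and Gabbr2. These were chosen because in each pair one gene was found in most cells and the other in a minority. CG dinucleotides are in capitals.
Gabra4, chr5:71658309-71658558, minus strand: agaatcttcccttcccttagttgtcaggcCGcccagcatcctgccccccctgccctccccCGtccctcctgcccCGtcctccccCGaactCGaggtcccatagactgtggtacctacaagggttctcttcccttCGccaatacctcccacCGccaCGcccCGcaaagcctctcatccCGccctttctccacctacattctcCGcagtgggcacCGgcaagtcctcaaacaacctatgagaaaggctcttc
Gabrg1, chr5:70842618-70842867, minus strand: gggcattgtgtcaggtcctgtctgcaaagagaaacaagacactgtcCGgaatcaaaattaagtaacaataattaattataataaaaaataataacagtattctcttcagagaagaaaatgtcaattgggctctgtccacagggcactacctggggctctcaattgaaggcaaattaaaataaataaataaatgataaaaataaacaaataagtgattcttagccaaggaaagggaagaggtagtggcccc
Gabbr1, chr17:37045716-37045965, plus strand: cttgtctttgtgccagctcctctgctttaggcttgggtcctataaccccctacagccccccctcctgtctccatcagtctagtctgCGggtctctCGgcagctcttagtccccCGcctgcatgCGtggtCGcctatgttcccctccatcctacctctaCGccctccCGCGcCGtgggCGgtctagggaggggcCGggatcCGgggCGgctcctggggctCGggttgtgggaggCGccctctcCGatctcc
Gabbr2, chr4:46991715-46991964, minus strand: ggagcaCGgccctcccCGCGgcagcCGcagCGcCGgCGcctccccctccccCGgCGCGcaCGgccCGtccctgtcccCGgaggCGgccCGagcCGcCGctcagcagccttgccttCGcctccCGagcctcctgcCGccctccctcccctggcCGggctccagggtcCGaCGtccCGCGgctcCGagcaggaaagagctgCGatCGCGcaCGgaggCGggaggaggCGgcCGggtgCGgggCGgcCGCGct
The stretch before Gabra4 holds 12 CG dinucleotides and that before Gabrg1 holds 1, while that before Gabbr1 holds 16 and that before Gabbr2 holds 37. At least 12 are found in 33.5% of the 32851 promoter stretches of this length in the table, and at least 1 in 92.1%. At least 16 are found in 25.4% and at least 37 in 2.2%. The gene found in fewer cells thus had fewer CGs in one pair and more in the other.

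The comparison of the genotypes asked whether the inhibitory receptors of VTA DA neurons differ between 3xTg and WT. This was read by 2 measures. The first takes log2(normalized count + 1) in each cell and subtracts the WT mean from the 3xTg mean, given relative to the median gene, because the median of the 10741 genes was itself 0.51 higher in 3xTg. This scale understates the change of low genes. The second is the log2 ratio of the summed counts, each as CPM of the genotype, for which the median gene was at -0.03. None of the 6 genes that reached the minimum was past 2-fold by either measure. By the first, 9.98% of all genes were past 2-fold higher and 6.55% lower, and by the second 9.29% higher and 11.8% lower. Past 1.5-fold higher were Gabra4 and Gabrb1 by the first measure, where 22.4% of genes were, and Gabra2 and Gabbr2 by the second, where 18.6% were. None was past 1.5-fold lower, against 21.5% and 22.3% of genes. No gene was past 1.5-fold by both. The median over the 7 genes was 0.46 above the median gene for the mean over cells, and the same median of the log2 ratios of sums was 0.44.

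**Figure D3:**
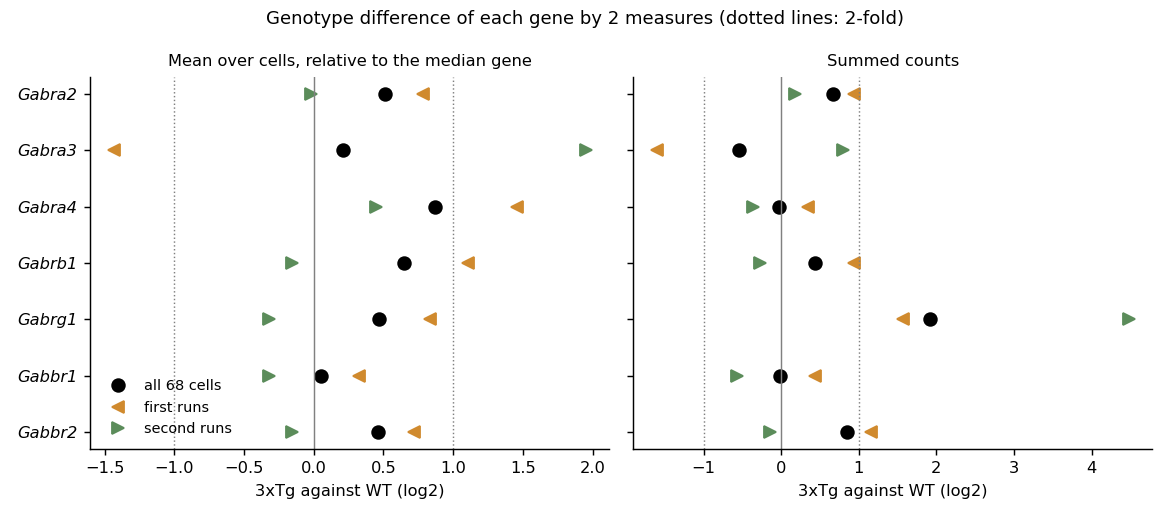
The log2 difference of each gene is shown for all 68 cells (circles), the first runs of label numbers (left triangles, label numbers up to 55) and the second runs (right triangles, numbers 57 to 92). The left panel gives the mean over cells relative to the median gene, the right panel the summed counts, and dotted lines mark 2-fold. The circles of the 6 tested genes lie inside the dotted lines in both panels. From the first to the second runs, every gene except Gabra4 changes side in the left panel. In the right panel every gene except Gabra2 and Gabrg1 does. Gabra3 alone goes from lower to higher in 3xTg, in both panels. The right-most triangle, Gabrg1 in the second runs, rests on 23 counts against 1.

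Gabra4, an alpha subunit, had the largest difference by the mean over cells among the 7. Its normalized counts had a median of 112 in 3xTg with a highest value of 1519, and a median of 35.6 in WT with a highest value of 1029. The genotypes overlapped over nearly the whole range, and at least 10 counts were present in 27 of 33 cells of 3xTg and 19 of 35 of WT. On the log2 scale the mean was 5.66 ± 3.04 in 3xTg and 4.28 ± 3.55 in WT (± SD over cells). These means were 1.38 apart, which is 0.87 above the median gene. The summed counts did not differ in that way, at 5348 (95% exact Poisson interval 5206 to 5493) in 3xTg and 5058 (4920 to 5199) in WT, or 146 and 149 CPM and a log2 ratio of -0.03. A count was present in 28 of 33 cells of 3xTg and 25 of 35 of WT, while 3xTg cells had a higher median number of genes with a count. By the mean over cells, 74.9% of all tested genes were higher in 3xTg. The summed levels of Gabra4 were close, and the log2 ratio was -0.25 without 3xTg 26 and 0.20 without WT 9. Leaving out any of 10 single cells took the first measure past 2-fold, to between 1.002 and 1.069.

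Gabra2, the alpha subunit best known from the axon initial segment and from the anxiolytic action of benzodiazepines, was a low gene in both genotypes. Its normalized counts had a median of 6.68 in 3xTg and 2.45 in WT, and the highest values were 99.2 and 104. Counts between 1 and 9 were common, in 11 cells of 3xTg and 19 of WT, and at least 10 counts were present in 16 cells of 3xTg and 5 of WT. Its mean on the log2 scale was 2.92 ± 2.03 in 3xTg and 1.89 ± 1.73 in WT, which is 0.51 above the median gene, and its sums were 690 (639 to 743) and 402 (364 to 443) counts, a log2 ratio of 0.67. The cell WT 15 held 35.3% of the WT sum, and without it the ratio was 1.26. The ratio was below 1.5-fold without 3xTg 31, 3xTg 35, 3xTg 76 or 3xTg 85, and lowest without 3xTg 31, at 0.45. Without the cells with a marker of another cell type the ratio was 0.55, just under 1.5-fold.

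Gabra3 gave opposite signs by the 2 measures. Its median was 52.1 normalized counts in 3xTg and 27.5 in WT, but the highest value was 297 in 3xTg and 1082 in WT, so that the few strongest cells were all WT. On the log2 scale the mean was 4.69 ± 2.98 in 3xTg and 3.97 ± 3.55 in WT, which is 0.21 above the median gene. The sums were 3180 (3070 to 3292) counts in 3xTg and 4280 (4153 to 4410) in WT, a log2 ratio of -0.54. The cell WT 5 held 20.9% of the WT sum, and without it the ratio was -0.24. Without the cells with a marker of another cell type both measures were below 0, at -0.07 and -0.63. At least 10 counts were present in 23 cells of 3xTg and 18 of WT.

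Gabra3 also differed between the runs of label numbers. In the first runs its mean was 4.62 in WT 1 to 22 and 3.65 in 3xTg 24 to 55. In the second runs it was 3.97 in WT 57 to 74 and 6.51 in 3xTg 76 to 92, where all 12 cells held at least 10 counts, with normalized counts from 21.8 to 263. The 3 cells WT 94 to 96 had at most 0.877. Relative to the median gene the difference was thus -1.43 in the first runs and 1.95 in the second. For the sums, the log2 ratio was -1.60 and 0.80.

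Gabrb1, a beta subunit, which lines the GABA binding pocket together with alpha, was present at 10 or more counts in 24 cells of 3xTg and 20 of WT. Its median was 41.6 normalized counts in 3xTg and 20.0 in WT, with highest values of 369 and 209. The mean on the log2 scale was 4.64 ± 2.84 in 3xTg and 3.49 ± 2.96 in WT, which is 0.65 above the median gene. The sums were 2718 (2617 to 2822) and 1855 (1772 to 1941) counts, a log2 ratio of 0.44. Leaving out any of 19 single cells took the first measure below 1.5-fold, to 0.52 at the lowest. In cells with a count the medians were close, at 54.5 normalized counts in 3xTg and 58.2 in WT. The means of these cells on the log2 scale were 5.89 and 5.55. The share of cells with a count was 78.8% (95% exact Clopper-Pearson interval 61.1 to 91.02) and 62.9% (44.9 to 78.5). The intervals of sums cover the counting of reads alone and leave out the spread between cells. The libraries were amplified and no molecular identifiers are mentioned, so these intervals may not cover the sampling of transcripts. Those of shares treat cells as independent draws, although cells of 1 mouse may be alike, and no comparison of the genotypes is read from them.

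Gabrg1, a gamma subunit of low abundance in most of the brain, was found in 8 cells of 3xTg and 2 of WT, or 24.2% (11.1 to 42.3) and 5.71% (0.700 to 19.2). The 8 cells of 3xTg held between 15 and 106 counts each. In WT, 1 cell (WT 15) held 80 counts and the other had 1. The sums were 329 (294 to 367) and 81 (64.3 to 100.7) counts, a log2 ratio of 1.91 that rests in WT on a single cell. Of the 8 cells of 3xTg, 7 belong to the run 24 to 55 and 1 to the run 76 to 92. The astrocyte marker Slc1a2 had a count in these as in all 68 cells. Of the other 5 astrocyte markers, Gfap and Aldh1l1 were at 0 in the 10 cells, 1 cell had Gja1 (16 counts), 1 had Slc1a3 (1 count) and 1 had Aqp4 (1 count). The microglial marker C1qb had 20 counts in 3xTg 37, 103 in 3xTg 48 and 63 in 3xTg 77 and was at 0 in the other 7, and it had a count in 23 of all 68 cells. Cells 3xTg 48 and 3xTg 77 are among the cells with a count of Pvalb, Tmem119 or P2ry12. The part of other cells in Gabrg1 was not tested. Th was between 1367 and 11932 counts in all. All 10 cells also had Gabra4 and Gabbr1, and 8 had Gabrb1 and 8 Gabbr2.

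**Figure D4:**
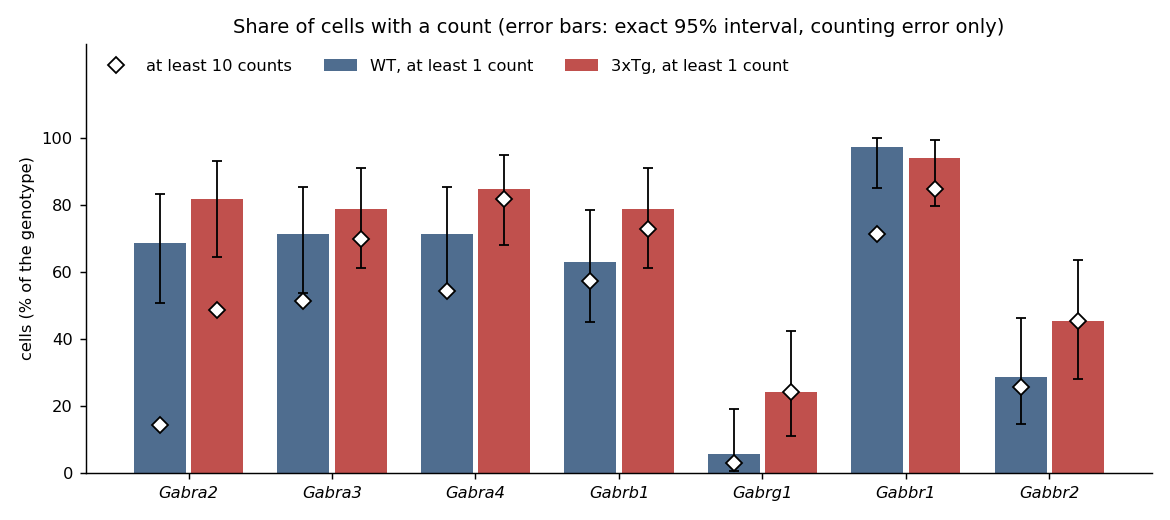
Bars give the percentage of cells of each genotype with at least 1 count of a gene, with exact 95% intervals, and diamonds the percentage with at least 10 counts. The intervals take cells as independent draws and leave out the spread between mice. The gap between bar and diamond is widest for Gabra2 in WT.

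Gabbr1, the GABA binding subunit of the GABA-B receptor, was nearly universal, with a count in 31 of 33 cells of 3xTg and 34 of 35 of WT. Its median was 122 normalized counts in 3xTg and 95.1 in WT, the highest values were 853 and 702, and at least 10 counts were present in 28 and 25 cells. The mean on the log2 scale was 6.23 ± 2.60 in 3xTg and 5.67 ± 2.71 in WT, which is 0.05 above the median gene, and the sums of 6164 (6011 to 6320) and 5793 (5645 to 5944) counts gave a log2 ratio of -0.02. By both measures this gene was at the median of all genes.

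Gabbr2, the partner that couples to the G protein, had a count in 15 of 33 cells of 3xTg and 10 of 35 of WT, or 45.5% (28.1 to 63.6) and 28.6% (14.6 to 46.3). Its median was 0 in both, and the highest normalized counts were 287 and 235. The mean on the log2 scale was 2.34 ± 2.81 in 3xTg and 1.37 ± 2.34 in WT, which is 0.46 above the median gene, and the sums were 970 (910 to 1033) and 499 (456 to 545) counts, a log2 ratio of 0.85. The cell WT 5 held 38.9% of the WT sum and 3xTg 43 held 24.8% of the 3xTg sum. The ratio was 1.52 without WT 5 and 0.46 without 3xTg 43. It was below 1.5-fold with thinned counts, at 0.16, and without the cells with a marker of another cell type, at 0.33.

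The GABA-B partners were unequal within cells. Both were found in 25 cells, Gabbr1 alone in 40, Gabbr2 alone in 0 and neither in 3, and Gabbr1 had the higher count in 62 of 68 cells. Cells with Gabbr2 had a median of 9038 genes with a count and those without had 7011. The median normalized count of Gabbr1 was 151 in cells with Gabbr2 and 70.2 in cells without. The part of library quality in this split was not tested.

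Within the runs of label numbers, the tested genes other than Gabra3 stood higher relative to the median gene in the first pair than in the second by the mean over cells, while Gabra3 was lower in the first and higher in the second. In the first runs, Gabra4 (1.46) and Gabrb1 (1.11) were past 2-fold higher by the mean over cells relative to the median gene, against 14.3% of genes, and Gabra3 (-1.43) was past 2-fold lower, against 9.55%. By the sums, Gabbr2 (1.16) was past 2-fold higher, against 19.9% of genes, and Gabra3 (-1.60) lower, against 14.3%. In the second runs, 1 gene, Gabra3 (1.95), was past 2-fold higher by the mean over cells, against 19.2% of genes, and none was lower, against 18.4%. By the sums none of the 6 tested genes was past 2-fold in the second runs, where 11.1% of genes were higher and 18.9% lower. Gabrg1, below the minimum, had log2 ratios of sums of 1.57 in the first runs and 4.48 in the second, the latter from 23 counts against 1. Of the 6 genes other than Gabra3, 5 lay between -0.32 and -0.02 by the mean over cells in the second runs, and Gabra4 was at 0.45. The median over the 7 genes was 0.78 in the first runs and -0.15 in the second by the mean over cells, and 0.93 and -0.14 by the sums. Runs and genotypes cannot be told apart in these labels, since each run holds 1 genotype.

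**Figure D5:**
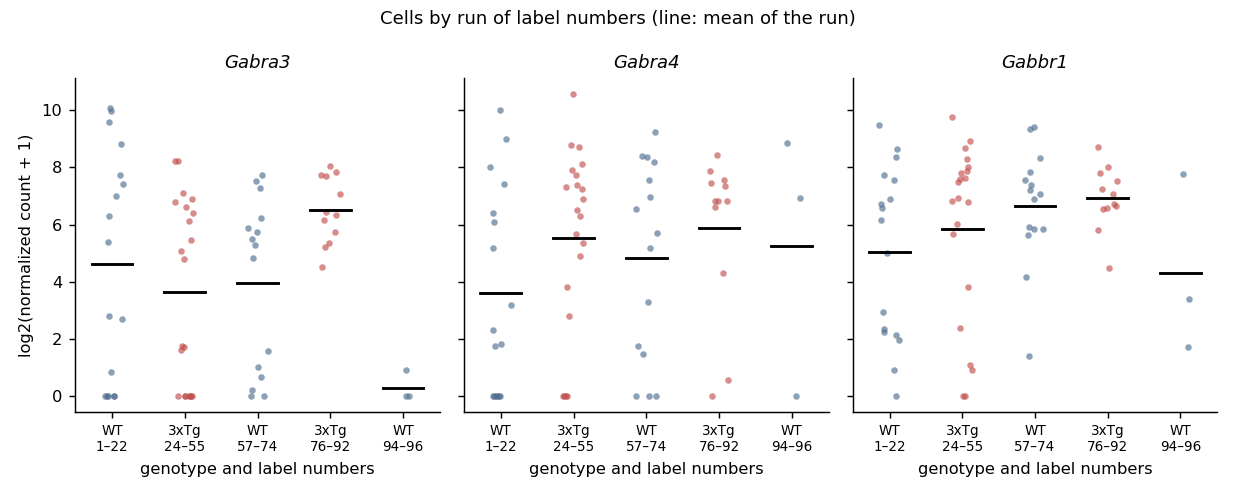
Each point is 1 cell, plotted as log2(normalized count + 1) by run of label numbers in their order, in blue for WT and red for 3xTg, with the mean of the run as a line. Gabra3 is at 6.51 on average in 3xTg 76 to 92 and at 0.30 in WT 94 to 96, and the WT run 1 to 22 has several cells at 0 for Gabra3 and Gabra4.

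The number of genes found in a cell moved with the receptor genes. Over the 68 cells, each of which has its own depth and library quality behind all of its genes, Spearman's rho with the number of genes with a count was 0.53 for Gabra2, 0.46 for Gabrb1, 0.33 for Gabbr2, 0.27 for Gabrg1, 0.24 for Gabbr1, 0.21 for Gabra4 and 0.19 for Gabra3. In a linear fit with that number beside the genotype, a choice made once the data were known, the difference relative to the median gene was 0.71 for Gabra4, 0.61 for Gabrg1, 0.48 for Gabbr2, 0.36 for Gabra2, 0.13 for Gabrb1, 0.10 for Gabra3 and -0.13 for Gabbr1. After thinning to 700471 counts per cell, with 2 shallower cells of 3xTg and 5 of WT dropped, a count of Gabra4 remained in 27 of 31 cells of 3xTg and 23 of 30 of WT, one of Gabrg1 in 7 and 2, and one of Gabbr2 in 13 and 9.

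Cells differed in how many of the alpha genes they held. All 3 of Gabra2, Gabra3 and Gabra4 had at least 1 count in 22 cells of 3xTg and 15 of WT, and none of them did in 1 and 3 cells. At 10 counts or more, all 3 were present in 12 and 3 cells and none in 3 and 11. The median number of genes with a count was lower in WT, and its part in these counts was not tested.

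Pairs of the 7 genes were weakly related across cells. Of 21 pairs, Spearman's rho over 68 cells ran from 0.01 for Gabra3 and Gabrg1 to 0.38 for Gabra4 and Gabbr1. The 6 pairs of the 4 chromosome 5 neighbours ran from 0.07 for Gabra4 and Gabrg1 to 0.37 for Gabra2 and Gabrb1. All 21 cells with at least 10 counts of Gabra2 also had at least 10 counts of Gabrb1, which 23 of the other 47 cells had. Those 21 cells had a median of 9309 genes with a count and the others 6922. Among genes with a count in at least 50% of cells, the genes whose pattern across the 68 cells was most like that of each receptor gene were Kctd12b (0.57), Zbtb11 (0.57) and Wash (0.55) for Gabra2, Cd164 (0.55), Hp1bp3 (0.54) and Psmf1 (0.54) for Gabra3, Sgta (0.64), Timm10 (0.61) and Atp6ap2 (0.60) for Gabra4, and Oat (0.61), Fech (0.58) and Tmx3 (0.57) for Gabrb1. For Gabrg1 they included Trim28 (0.45) and Grin1 (0.43). They were for Gabbr1 Elmo1 (0.55), B230217C12Rik (0.55) and Mboat7 (0.54), and for Gabbr2 Usp32 (0.53), Fasn (0.50) and Klf7 (0.48). These are the highest of 6773 or 6774 genes, for which the median rho was between 0.05 and 0.16. With the number of genes with a count, the genes named here had a rho from 0.17 for Hp1bp3 to 0.58 for Usp32, with Kctd12b at 0.55 and Grin1 at 0.49. Within 3xTg and WT, Grin1 was at 0.58 and 0.16 with Gabrg1. With Gabbr2, Klf7 was at 0.69 and 0.29 and Usp32 at 0.37 and 0.67. The part of library quality in these values was not tested.

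Other genes of GABA signalling were counted by the same rules. The shares of all genes past 2-fold higher and lower were 9.98% and 6.55% for the cell means, 9.29% and 11.8% for the sums, and 3.04% and 4.12% for both together. Of 11 other GABA-A subunits, 1 reached the minimum. This gene, Gabrb2, was by the mean over cells past 2-fold higher in 3xTg, at 1.13 relative to the median gene. Its sums of 8183 and 6705 counts gave a log2 ratio of 0.18. The cell 3xTg 24 held 32.1% of the 3xTg sum and WT 20 held 21.7% of the WT sum. The first measure was under 2-fold without 3xTg 24, WT 18, WT 22 or WT 74, and lowest without 3xTg 24, at 0.91. Gabrq, below the minimum, had a count in 6 cells of 3xTg and 1 of WT.

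Of 19 genes for the trafficking and anchoring of GABA-A receptors, all reached the minimum, 4 were past 2-fold higher by the cell means and 2 by the sums, and none was lower. Past 2-fold by both were Ubqln1 and Arfgef2. Ubqln1, whose product binds GABA-A subunits and slows their degradation, was at 1.51 relative to the median gene, and its sums were 3014 (2907 to 3124) counts in 3xTg and 1353 (1282 to 1427) in WT, a log2 ratio of 1.05. The cell 3xTg 26 held 16.3% of the 3xTg sum, and the ratio was 0.83 without it and below 2-fold without any of 8 single cells. Arfgef2, which encodes the exchange factor BIG2 that moves receptors from the Golgi, was at 1.13 and 1.32, with at least 10 counts in 16 cells of 3xTg and 8 of WT. Without 3xTg 49 the first of these was 0.99, just under 2-fold. Trak1 (1.29) and Clptm1 (1.13) were past 2-fold by the mean over cells alone, and Clptm1 was at 0.99 without 3xTg 50. The median of the list was -0.02 by the cell means and 0.30 by the sums. The anchor gephyrin, Gphn, had a count in 19 cells of each genotype, at least 10 counts in 18 cells of 3xTg and 12 of WT, and sums of 1419 and 864 counts.

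Of 16 partners of the GABA-B receptor, 11 reached the minimum. Kctd12b, of the family of cytosolic subunits that shape GABA-B responses, was past 2-fold higher in 3xTg by both measures, at 1.09 and 3.74. Its sums were 620 (572 to 671) counts in 3xTg and 43 (31.1 to 57.9) in WT, and at least 10 counts were present in 8 cells of 3xTg and 0 of WT. Without 3xTg 26, 3xTg 55, 3xTg 76 or 3xTg 89 the first measure was under 2-fold, at 0.96 at the lowest. Kcnj9, which encodes the GIRK3 channel subunit, was past 2-fold lower by both, at -1.55 and -1.50, with 310 (276 to 347) counts in 3xTg and 811 (756 to 869) in WT and at least 10 counts in 7 and 13 cells. Gnb5 (1.197 by the mean over cells) and Gnai2 (1.10 by the sums) were past 2-fold by 1 measure. The cell 3xTg 24 held 26.2% of the 3xTg sum of Gnai2, and the ratio was 0.71 without it and also under 2-fold without 3xTg 35 or 3xTg 43. Kcnj6, the GIRK2 subunit, had 828 and 977 counts. Kctd8 and Kctd16 had a count in 1 cell each. The median of the 11 was 0.36 by the cell means and -0.16 by the sums.

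Of 13 genes that make, move or clear GABA or set chloride, 10 reached the minimum and none was past 2-fold by both measures. Abat, which encodes the transaminase that breaks down GABA, was at 2.22 relative to the median gene with a count in 30 cells of 3xTg and 21 of WT, and its sums of 8924 and 4671 counts gave a log2 ratio of 0.82. Aldh1a1, which serves an alternative route of GABA synthesis in dopamine neurons, was at -1.40 by the cell means and 0.30 by the sums. Gad1 was at -1.13 by the sums alone, with 69.4% of the WT sum in the cell WT 7. That cell is among those with a count of Pvalb, Tmem119 or P2ry12. The ratio of Gad1 was 0.53 without WT 7 and under 2-fold without WT 63. Gad2 had a count in all 68 cells, and Slc32a1, the vesicular GABA transporter, in 5, with 92.5% of its WT sum in WT 7. Slc12a5, the chloride exporter KCC2 that keeps GABA inhibitory, had 1426 and 1948 counts. The median of the 10 was -0.24 by the cell means and 0.29 by the sums.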

How the data were processed

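Patch-seq libraries of 68 cells were analysed. According to the methods, the authors trimmed the reads, used Strand NGS for alignment against RefSeq transcripts of mm10, dropped duplicates and counted per gene. The deposited estimated counts per gene were the main data. The deposited log2 values, normalized by the authors with DESeq2, served as an alternative. Of counts above 0, 55.3% were not whole (tolerance 0.001), so reads shared between related genes may have been split, and strand use in counting is not given in the sources used here.

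Size factors were the median of ratios over 787 genes. The pseudocount was 1, and genes needed a mean normalized count of 5. Counts were rounded before they were summed or thinned. Intervals are exact at 95%: those of sums (Poisson) cover counting error only, and those of shares (Clopper-Pearson) take cells as independent draws. The labels give no mouse, so no test was made. On simulated data, recovery of known changes was checked for the summed counts, and unchanged genes were checked for both measures. No 2 cells held identical values.

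The genes and lists were chosen with earlier results of these data known. Named are the 7 genes, list genes past 2-fold by both measures or on which a count turns, and the 3 genes most like each receptor gene. Named outside this rule, after their values were seen, were Gphn, Gabrd, Gabrp, Gabrq, Kcnj6, Kctd8, Kctd16, Gad2, Slc32a1 and Slc12a5. Some genes of the lists are not reported here and are left out of the lists' values. Marker lists for GABA and glutamate neurons, microglia, oligodendrocytes, their precursors and endothelial cells were also summed: the highest cell reached 267, 760, 3294, 402, 9.03 and 1.36 CPM, and the medians of each genotype were at or below 37.7 CPM.

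Tools were numpy 2.4.6, pandas 2.3.3, matplotlib 3.10.9 and scipy 1.17.1 under Python 3.11.15, and edgeR 4.0.16 in R 4.3.3 for TMM factors. Transcript lengths came from GENCODE release M21 (GRCm38). Alternatives were CPM, TMM, pseudocounts of 0.1 and 10, thinned cells, other gene sets for the median gene, cells without other markers, runs of label numbers, 1.5-fold, and leaving out each cell. The fits on cells with a count alone and with the number of genes, and leaving out each cell for the list genes, were added once the data were known.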

Additional observations from a re-analysis of the deposited data

How the results depend on the processing

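The count of genes past 2-fold by the mean over cells was 0 and stayed 0 with CPM, TMM factors, a pseudocount of 10, thinned cells, the authors' log2 values, the median gene over genes in most cells, cells with a count alone, and the number of genes as a term. It was 1 with a pseudocount of 0.1, without cells with a marker of another cell type, without WT 66 and WT 73, the cells with at least 10 counts of at least 2 of Aqp4, Gja1, Slc1a3 and Aldh1l1 (Gabra4 each time) and in the second runs (Gabra3), 2 with the median gene over all genes with a count (Gabra4 and Gabrb1) and at 1.5-fold, and 3 in the first runs. By the summed counts it was 0, with 2 at 1.5-fold and 2 in the first runs. Leaving out single cells gave 0 to 1 for both counts, with Gabra4 past 2-fold without any of 10 cells and, by the sums, Gabra2 without WT 15 or WT 64 and Gabbr2 without WT 5 or WT 67. The median over the 7 genes by the mean over cells, 0.46, was 0.76 and 0.24 with pseudocounts of 0.1 and 10, 0.84 with the median gene over all genes with a count, 0.36 without cells with a marker of another cell type, 0.78 and -0.15 in the first and second runs, 0.62 in cells with a count alone and 0.36 with the number of genes as a term. It ran from 0.32 to 0.62 with single cells left out. The median by the sums, 0.44, was 0.73 with normalized counts summed, 0.16 with thinned counts, 0.33 without cells with a marker of another cell type, and 0.93 and -0.14 in the first and second runs, and ran from 0.31 to 0.55 with single cells left out. The cause of these shifts was not tested. Without WT 15, the WT sum of Gabrg1 rests on 1 count. No paired analysis was possible because the genotypes share no label numbers. Counts of Gabra2 were between 1 and 9 in 30 of its 51 cells, and the part of depth in this was not tested.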
